A study of Homo sapiens with 6 samples.

Results

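Chemokines are small secreted proteins that attract leukocytes. All gene amplicons named CCL, CXCL, CX3CL, XCL or IL8 were taken, which gave 41 of the 20802 gene amplicons on the panel. They were measured by amplicon sequencing of RNA from MCF10A cells, an immortalised, non-malignant line of human mammary epithelium. 3 kinds of culture with 2 libraries each were deposited. MCF10A WT cells were untransfected. MCF10A eGFP cells carried the empty pIRES2eGFP plasmid, and MCF10A GIRK1 cells carried the same plasmid with the coding sequence of GIRK1 (KCNJ3), a subunit of a potassium channel that G proteins open, ahead of eGFP. Both transfected lines were selected with G418 and sorted for green fluorescence, so the drug and eGFP are shared by the eGFP and GIRK1 libraries. Whether each line was 1 clone or a pool, and whether the libraries of a line came from separate cultures, is not stated, so p-values measure only the spread between these libraries, which may be technical.

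Chemokines signal through G protein-coupled receptors on the cells they attract. IL8 (CXCL8), CXCL1, CXCL2, CXCL3, CXCL5 and CXCL6 bind CXCR2 and draw neutrophils, and epithelial cells make them when interleukin 1 or TNF activates NF-kB. CXCL9, CXCL10 and CXCL11 bind CXCR3, draw activated T cells and NK cells and are classical interferon-induced genes. CCL20 binds CCR6 on dendritic cells and T cell subsets, CCL5 draws T cells and monocytes, and CXCL16 is a membrane-anchored ligand of CXCR6 that proteases shed from the surface.

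To compare the promoters of the chemokines described below, the 250 bases before the annotated start were read from RefSeq (GRCh38.p14) for the 31 members with an entry. CCL5 and CXCL16 were not among them and were not searched. A kB motif was searched as the letters GGAATTTCC on both strands, and an interferon-response motif as GAAANNGAAA on both strands. The first was present in 145 of 35116 promoters in the table (0.413%) and in 8 members. The second was present in 1061 promoters (3.02%) and in 2 members, CXCL9 and CXCL10, and no match of one motif overlapped a match of the other. The stretches below are shown because they cover the kB match in the CXCR2 ligands and in the 2 CXCR3 ligands that held it, with the match in capitals and the strand of transcription 5′ to 3′.
IL8: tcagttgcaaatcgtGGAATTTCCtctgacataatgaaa
CXCL1: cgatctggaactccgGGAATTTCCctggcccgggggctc
CXCL2: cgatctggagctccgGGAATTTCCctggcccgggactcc
CXCL3: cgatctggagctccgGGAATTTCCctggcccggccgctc
CXCL5: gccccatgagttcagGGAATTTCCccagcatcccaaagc
CXCL6: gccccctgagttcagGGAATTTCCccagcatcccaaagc
CXCL10: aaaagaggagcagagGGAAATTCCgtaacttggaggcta
CXCL11: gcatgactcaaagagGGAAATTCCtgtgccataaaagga
In the 6 CXCR2 ligands the match lay on the coding strand, which reads like the transcript, and began between -91 and -77 from the start. In CXCL10 and CXCL11 it read GGAAATTCC, the same motif on the opposite strand, beginning at -176 and -75. CCL20 held neither set of letters in its window, and kB sites of other letters were not searched in any gene.

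The whole window is given for IL8, a CXCR2 ligand, and for CXCL10, a CXCR3 ligand, with every match of either motif in capitals. The IL8 window (chr4:73740319-73740568, plus strand) held the kB match alone, and the CXCL10 window (chr4:76023498-76023747, minus strand) held both motifs, with the interferon-response match at -221.
IL8: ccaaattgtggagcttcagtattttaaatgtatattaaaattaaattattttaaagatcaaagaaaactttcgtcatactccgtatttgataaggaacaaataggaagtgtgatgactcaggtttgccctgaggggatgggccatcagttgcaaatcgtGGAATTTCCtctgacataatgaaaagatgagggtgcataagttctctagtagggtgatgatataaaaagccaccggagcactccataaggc
CXCL10: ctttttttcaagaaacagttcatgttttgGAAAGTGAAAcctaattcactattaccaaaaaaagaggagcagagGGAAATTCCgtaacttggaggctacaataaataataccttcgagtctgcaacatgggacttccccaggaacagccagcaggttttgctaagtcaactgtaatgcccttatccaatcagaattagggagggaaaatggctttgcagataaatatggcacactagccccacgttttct
A match of letters is a description of the sequence, and binding of a factor was not measured.

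The libraries held 2506120 to 16040556 reads, so that 3 reads, the limit that a count of 0 allows, stood for 0.187 to 1.20 RPM (reads of a gene scaled to the same total of mapped reads in each library). These limits and the intervals below cover counting error only. KCNJ3 had 2408 and 3677 reads in the GIRK1 libraries and 0 in both eGFP libraries and WT replicate 2. The library labelled WT replicate 1 stood apart from the others: it had 2 reads of KRT5, 0 of KRT14 and 481 of the oestrogen receptor gene ESR1, and 48 of KCNJ3, and 8 of the 9 chemokines described below were at 0 reads in it. These values go against its label as MCF10A, so it entered no comparison and is given apart. TP63, another basal marker of this line, was at 0 reads in all 6 libraries. The names of the deposited tables put the GIRK1 libraries under a tag of their own whose meaning is not given, and what it marks cannot be told apart from the condition.

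Of the 41 chemokines, 9 had a mean of at least 10 reads over the other 5 libraries, and the same 9 passed the filter on low counts. A further 11 were read at a lower mean, never above 7 reads or 1.17 RPM. CXCL12 and CCL25 were read only in WT replicate 1, and 19 members had no read in any of the 6 libraries, among them the CXCR2 ligands CXCL5 and CXCL6. Tests were made for the 9 genes alone, first for GIRK1 against eGFP and then for GIRK1 against both eGFP libraries and WT replicate 2 together. The comparisons share the GIRK1 and eGFP libraries.

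**Figure D1:**
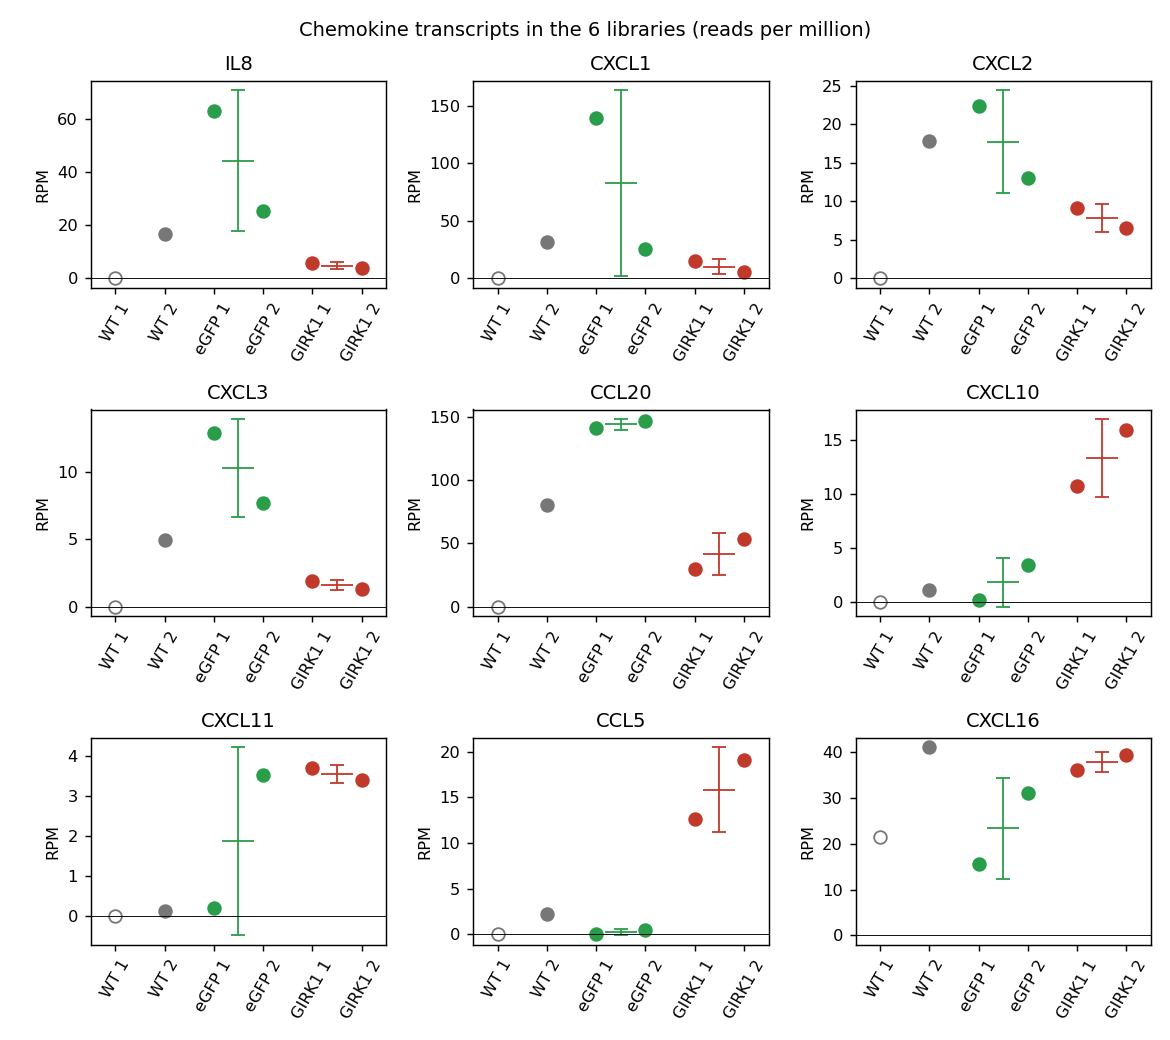
RPM of the 9 chemokines in each of the 6 libraries, 1 panel per gene with its own axis from 0. Filled circles are the 5 compared libraries, open circles are WT replicate 1, and bars give the mean ± SD of the 2 eGFP and the 2 GIRK1 libraries; IL8, CXCL1, CXCL2, CXCL3 and CCL20 are lower in both GIRK1 libraries than in the 3 controls, while CXCL10 and CCL5 are higher.

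Among the CXCR2 ligands, IL8 fell in MCF10A GIRK1 cells. IL8 is the archetypal neutrophil attractant. Its RPM was 16.7 in WT replicate 2, 63.0 and 25.5 in the eGFP libraries and 5.67 and 3.96 in the GIRK1 libraries. Both GIRK1 values lay below every control, although the eGFP values themselves differed more than 2-fold. The means were 44.3 ± 26.5 RPM in eGFP and 4.82 ± 1.21 RPM in GIRK1 cells (SD, n = 2 each), a log2 fold change of -3.25 ± 0.52 (SE; edgeR adjusted p = 0.0420). It was -2.39 without eGFP replicate 1, which kept the call, and -3.03 without GIRK1 replicate 2, which lost it (edgeR adjusted p = 0.0663; range over 12 alternatives 8.95e-09 to 0.934). Against the 3 controls the change was -2.89 ± 0.65 (edgeR adjusted p = 0.0916) and missed the threshold of 0.05. Since bulk RNA was measured, fewer cells expressing a gene and less RNA per cell cannot be told apart, here and below.

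CXCL1, CXCL2 and CXCL3, close paralogues that attract neutrophils through the same receptor, had lower values in both GIRK1 libraries but did not pass the test. CXCL1 RPM was 31.9 in WT replicate 2, 139.9 and 25.4 in eGFP, and 15.2 and 5.51 in GIRK1. The GIRK1 libraries lay under all controls, and the first eGFP library stood far above the second. The CXCL1 log2 fold change was -3.06 ± 0.86 against eGFP (edgeR adjusted p = 0.138), and it was -1.28 without eGFP replicate 1 and -3.85 without eGFP replicate 2, which passed. CXCL3 RPM was 4.99 in WT replicate 2, 12.9 and 7.72 in eGFP, and 1.89 and 1.35 in GIRK1. These groups did not overlap either, and the log2 fold change of CXCL3 was -2.69 ± 0.47 against eGFP (edgeR adjusted p = 0.0523) and -2.39 ± 0.53 against the 3 controls (edgeR adjusted p = 0.0908). CXCL2 RPM was 17.8 in WT replicate 2, 22.4 and 13.0 in eGFP, and 9.09 and 6.57 in GIRK1. The CXCL2 difference was the smallest of the family, -1.21 ± 0.38 on the log2 scale against eGFP (edgeR adjusted p = 0.167). How reads that match more than 1 of these similar transcripts were counted is not stated, so the split between CXCL1, CXCL2 and CXCL3 is less certain than their joint level.

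Summed over IL8, CXCL1, CXCL2 and CXCL3, the CXCR2 ligands gave 71.4 RPM in WT replicate 2, 238.2 and 71.6 RPM in the eGFP libraries, and 31.9 and 17.4 RPM in the GIRK1 libraries. WT replicate 2 and eGFP replicate 2 were thus alike in this sum, and eGFP replicate 1 stood above both. A wide spread between the eGFP libraries was not limited to chemokines. Over 9212 genes the SD of log2 RPM ratios was 0.646 between the eGFP libraries and 0.326 between WT replicate 2 and eGFP replicate 2. It was 0.722 between WT replicate 2 and eGFP replicate 1, and 0.338 between the GIRK1 libraries. The 4 genes lie in 1 cluster on chromosome 4, spanning 359 kb from IL8 to CXCL2 in GENCODE v29 (GRCh38). CXCL5 and CXCL6, which hold the same kB letters in their windows, lie in this family but had no read.

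CCL20, the CCR6 ligand, fell in GIRK1 cells and had the most reads of the chemokines in both eGFP libraries, with CXCL1 close to it in the first. Its RPM was 80.7 in WT replicate 2, 140.8 and 147.0 in eGFP, and 30.1 and 53.5 in GIRK1. The eGFP libraries were nearly equal, the GIRK1 libraries were both lower than any control, and WT replicate 2 lay between. The means were 143.9 ± 4.34 RPM in eGFP and 41.8 ± 16.6 RPM in GIRK1 cells (SD, n = 2 each), a log2 fold change of -1.82 ± 0.31 (SE; edgeR adjusted p = 0.0490). This call sat at the threshold: with the size factors of DESeq2 in place of TMM the adjusted p was 0.0508, over 12 alternatives it ran from 1.23e-05 to 0.948, and 7 of them passed. Leaving out GIRK1 replicate 1 also ended it, at -1.45. Against the 3 controls the CCL20 change was -1.58 ± 0.37 (edgeR adjusted p = 0.104). CCL20 is at chr2:227805739-227817564, away from the chromosome 4 genes.

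CCL5, which also attracts eosinophils, rose in GIRK1 cells. It had 36 reads (2.24 RPM) in WT replicate 2, 0 and 5 reads in the eGFP libraries, and 140 and 198 reads (12.6 and 19.1 RPM) in the GIRK1 libraries. The exact binomial 95% intervals reached 0.720 RPM and 1.14 RPM in the eGFP libraries, far below both GIRK1 values. WT replicate 2 lay above the eGFP libraries. The fitted log2 fold change was 5.58 ± 0.68 against eGFP (SE; edgeR adjusted p = 0.0191), a size that depends on very few eGFP reads: it was 5.0 without eGFP replicate 1 and 10.12 without eGFP replicate 2, which leaves a control at 0 reads. With WT replicate 2 among the controls it was 3.81 ± 0.75 (edgeR adjusted p = 0.0680). In both comparisons CCL5 passed the filter on low counts only with its GIRK1 reads, so its direction was not independent of the filter. CCL5 lies at chr17:35871491-35880793.

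The CXCR3 ligand CXCL10 had higher values in both GIRK1 libraries but did not pass the test. Its reads numbered 17 in WT replicate 2, 1 and 35 in eGFP, and 119 and 164 in GIRK1, or 1.06, 0.195, 3.42, 10.7 and 15.9 RPM. The GIRK1 libraries lay above all controls, and the eGFP libraries lay far apart. In the comparison with eGFP, CXCL10 passed the filter on low counts only with its GIRK1 reads, so its direction was not independent of the filter. The log2 fold change was 2.67 ± 0.74 against eGFP (edgeR adjusted p = 0.138) and 2.99 ± 0.68 against the 3 controls (edgeR adjusted p = 0.0955). Against eGFP it was 1.97 without eGFP replicate 1 (edgeR adjusted p = 0.0143) and 5.89 without eGFP replicate 2 (edgeR adjusted p = 0.000411), and over 11 alternatives the adjusted p ran from 0.000411 to 0.934.

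CXCL11, which binds the same receptor, did not separate the groups. Its RPM was 0.125 in WT replicate 2, 0.195 and 3.52 in eGFP, and 3.69 and 3.38 in GIRK1. The second eGFP library lay between the GIRK1 libraries, whereas the first had 1 read. In both comparisons CXCL11 passed the filter on low counts only with its GIRK1 reads. The log2 fold change of CXCL11 was 0.76 ± 0.81 (edgeR adjusted p = 0.639), 0.02 without eGFP replicate 1 and 3.99 without eGFP replicate 2, so the eGFP libraries decided its size. CXCL9, the third CXCR3 ligand, had 1 read in all. CXCL9, CXCL10 and CXCL11 span 40.1 kb of chromosome 4, 1902 kb from CXCL2.

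CXCL16 RPM was 41.0 in WT replicate 2, 15.6 and 31.2 in eGFP, and 36.2 and 39.3 in GIRK1. The GIRK1 libraries were above both eGFP libraries and below WT replicate 2. Its log2 fold change was 0.65 ± 0.32 against eGFP (edgeR adjusted p = 0.317) and 0.35 ± 0.34 against the 3 controls (edgeR adjusted p = 0.619). CXCL16 was also the one of the 9 genes with reads in WT replicate 1, 54 reads or 21.5 RPM.

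**Figure D2:**
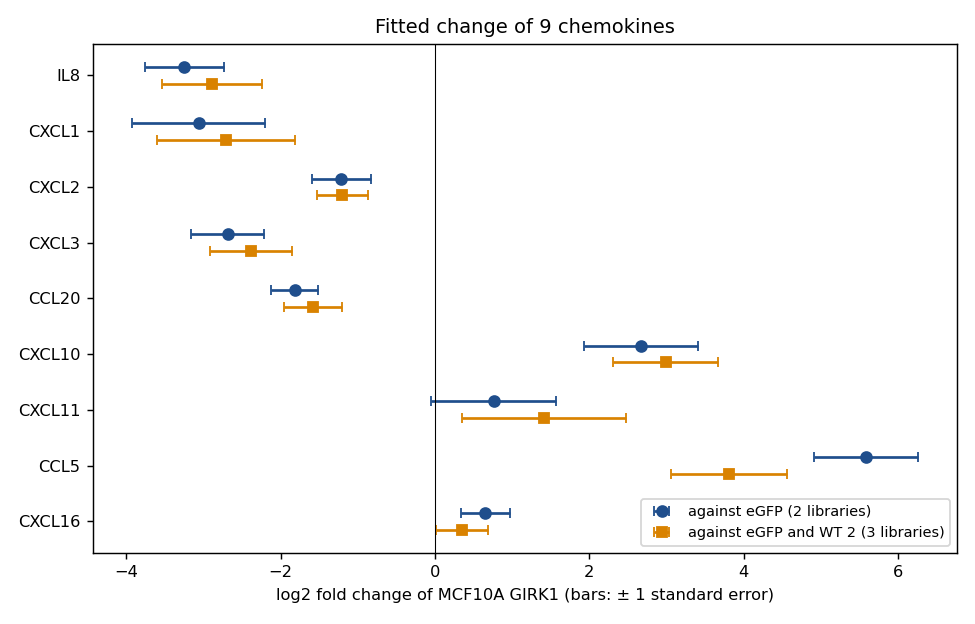
Log2 fold change of the 9 chemokines in MCF10A GIRK1 cells, fitted against the 2 eGFP libraries (circles) and against these with WT replicate 2 (squares), with bars of 1 SE. The CXCR2 ligands and CCL20 lie below 0 in both fits, from -3.25 for IL8 to -1.20 for CXCL2, and CXCL10 and CCL5 lie above 2.

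Against eGFP, 2 of the 9 chemokines passed in the lower direction (IL8 and CCL20) and 1 in the higher direction (CCL5). Of the 11279 genes tested, 0.745% passed lower and 0.780% higher, 1.52% in all. CCL5, CXCL10 and CXCL11 entered this test only with their GIRK1 reads, as the eGFP libraries alone fell short of the filter. Their direction was therefore not independent of the filter, in this count or the next ones against eGFP. By RPM alone, 5 chemokines were lower in both GIRK1 libraries than in either eGFP library and 3 were higher (CXCL10, CCL5 and CXCL16), while 25.2% and 29.1% of all genes tested separated in these directions. Separation of 2 libraries from 2 was therefore common, and it says little for a single gene. The median log2 fold change was -1.21 over the 9 chemokines and 0.01 over all genes tested, and with no filter on low counts, where 20 chemokines were fitted, it was 0.23. At an unadjusted p below 0.05, 7 of the 9 passed (5 lower, 2 higher) against 19.2% of all genes. In the test of DESeq2 5 chemokines passed (IL8, CCL20, CXCL3, CCL5 and CXCL10) against 6.15% of all genes.

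Against the 3 controls, no chemokine passed in edgeR, where 1.21% of 11389 genes did. The unadjusted p was below 0.05 for 7 of the 9 chemokines and for 18.7% of all genes. DESeq2 called 5 (IL8, CCL20, CXCL2, CXCL3 and CXCL10) and 7.36% of the 10947 genes to which it gave an adjusted p. All GIRK1 values lay below all controls for 5 chemokines (19.5% of genes) and above them for CXCL10 and CCL5 (21.6% of genes). Here too CCL5 and CXCL11 passed the filter only with their GIRK1 reads, so their direction was not independent of it. The median log2 fold change was -1.20 over the 9 chemokines, and 0.32 over 20 with no filter. The count of 0 at the adjusted threshold changed with single controls: without eGFP replicate 1 edgeR called 7 chemokines and 8.73% of all genes, and without WT replicate 2, which leaves the comparison with eGFP, 3 chemokines and 1.52%.

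The rule in the study's methods asks for a 2-fold change of mean RPM and, within both groups, a coefficient of variation under 0.7. That rule marked IL8, CXCL2, CXCL3 and CCL20 as lower, where it marked 5.17% of 13200 genes, and no chemokine as higher, where it marked 4.75%. The coefficient of variation over the eGFP libraries was 0.979 for CXCL1, 1.26 for CXCL10 and 1.41 for CCL5, all above its limit.

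**Figure D3:**
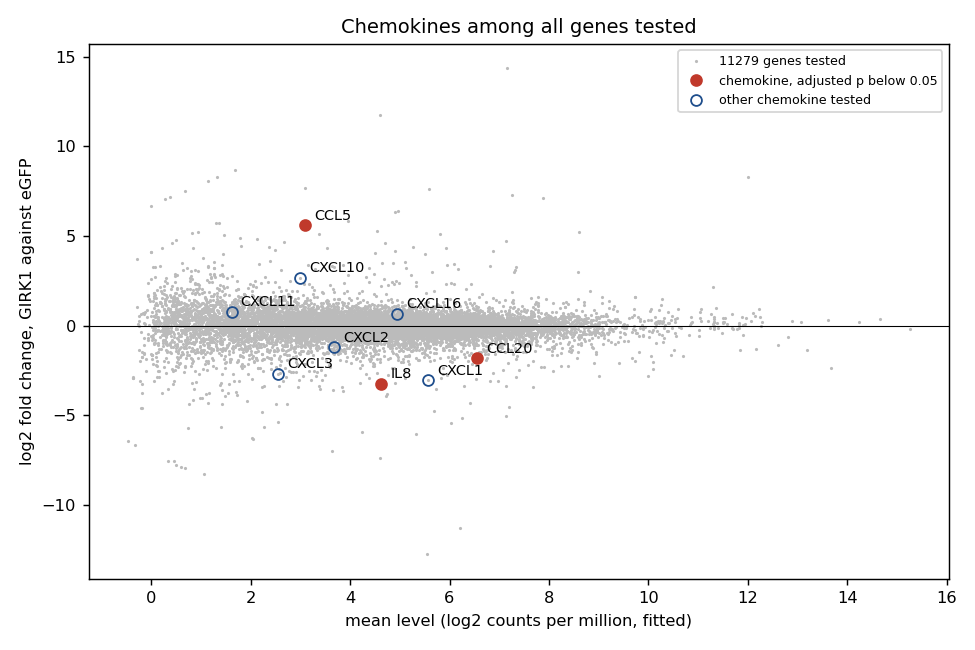
Fitted log2 fold change of GIRK1 against eGFP (vertical) against the mean level in log2 CPM, counts scaled to library size (horizontal) for the 11279 genes tested (grey), with the 9 chemokines named. Filled circles mark IL8, CCL20 and CCL5, which passed at an adjusted p below 0.05, and open circles mark the 6 others.

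The makeup of the chemokine RNA also differed between libraries. All chemokine amplicons together gave 197.6 RPM in WT replicate 2, 398.9 and 258.2 RPM in eGFP, and 127.0 and 150.9 RPM in GIRK1. The GIRK1 sums were the lowest of the 5. CXCR2 ligands made up 36.1% of chemokine reads in WT replicate 2, 59.7% and 27.7% in eGFP, and 25.1% and 11.5% in GIRK1. CXCL10 and CXCL11, with 1 read of CXCL9, made up 0.600% in WT replicate 2, 0.0978% and 2.69% in eGFP, and 11.4% and 12.7% in GIRK1. The share of CCL5 was at most 1.14% in the 3 controls and 9.92% and 12.7% in GIRK1. CCL20 made up 40.8% in WT replicate 2, 35.3% and 56.9% in eGFP, and 23.7% and 35.5% in GIRK1. The share of CXCL16 was 20.8% in WT replicate 2, 3.91% and 12.1% in eGFP, and 28.5% and 26.1% in GIRK1. All these shares, with those of the other chemokines, add to a whole, so they cannot move freely of each other. The amplicons of the 9 genes were of like length, 98 to 107 bases, with a GC content of 39.4% to 61.7%, lowest for CCL20 and highest for CCL5.

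**Figure D4:**
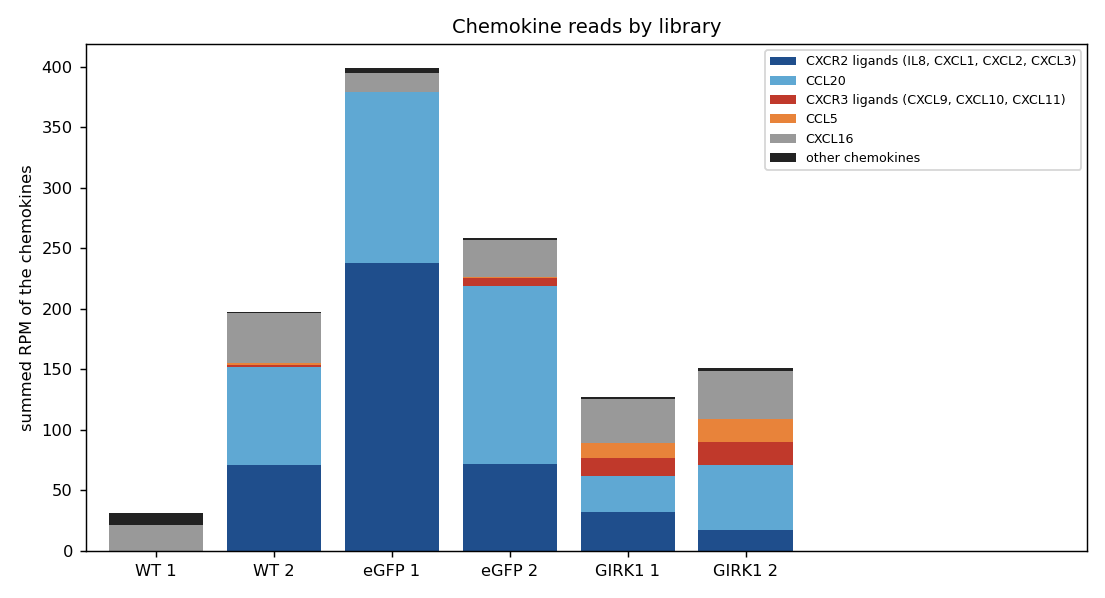
Summed RPM of the chemokines in each of the 6 libraries, stacked by ligand group (bars start at 0). The GIRK1 bars reach 127.0 and 150.9 RPM against 197.6 to 398.9 RPM in WT replicate 2 and eGFP, and hold the largest CXCR3 ligand (14.5 and 19.2 RPM) and CCL5 segments; WT replicate 1 holds CXCL16 and few others.

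The 11 chemokines read at a mean under 10 reads were CCL2, CCL21, CCL22, CCL24, CCL26, CCL27, CCL28, CX3CL1, CXCL9, CXCL14 and CXCL17. They include attractants of monocytes (CCL2), of T cells to lymph nodes (CCL21) and of lymphocytes to skin (CCL27) and mucosa (CCL28). None passed the filter on low counts, and with no filter edgeR called none of them, with 0 at an unadjusted p below 0.05. CXCL12, the CXCR4 ligand and a stromal chemokine, had 22 reads (8.78 RPM, exact binomial 95% interval 5.50 to 13.3) in WT replicate 1. It had 0 in the other 5.

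Few reads came from chemokine receptors. Of 18 conventional chemokine receptors 16 were on the panel, 13 of them had no read in the 5 compared libraries, and none reached the filter. CXCR2, the receptor of IL8 and its relatives, had 3 reads, all in WT replicate 2. CXCR4 had 21 reads in WT replicate 2, 0 in both eGFP libraries, and 10 and 1 in GIRK1. None of the 5 atypical receptors, which bind chemokines without G protein signalling, was tested, and 3 had no read in the 5 compared libraries. Of 7 proteases that cut or shed chemokines 4 were tested and none passed, among them ADAM10 (log2 fold change -0.09 against eGFP) and ADAM17 (0.16), the sheddases of CXCL16.

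Among 15 cytokines known to induce chemokines in epithelium, 5 were tested and 1 fell in each comparison, where 0.745% of all genes tested were lower against eGFP and 1.21% passed in either direction against the 3 controls. Against eGFP this was IL1B, the secreted form of interleukin 1, with 274 reads in WT replicate 2, 976 and 1017 in eGFP, and 50 and 39 in GIRK1 (log2 fold change -5.18; edgeR adjusted p = 0.00453). IL1B did not pass against the 3 controls (edgeR adjusted p = 0.0907), where WT replicate 2 lay far below the eGFP libraries. IL1A, the alarmin form, had 124.4 RPM in WT replicate 2, 85.2 and 200.0 RPM in eGFP, and 30.0 and 34.2 RPM in GIRK1. It passed against the 3 controls (-2.10; edgeR adjusted p = 0.0453) and gave -2.17 against eGFP (edgeR adjusted p = 0.0511). Interferon transcripts were scarce: IFNB1 had 2 reads in each GIRK1 library and 1 in WT replicate 2, and IL29, a type III interferon, had 2 and 5 reads in GIRK1 and 0 elsewhere.

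Of 18 regulators of chemokine transcription 17 were tested and none fell. IRF7, IRF9 and STAT2, which act in the interferon pathway, rose in both comparisons. IRF7 RPM was 4.12 in WT replicate 2, 1.95 and 4.01 in eGFP, and 98.3 and 119.2 in GIRK1, a log2 fold change of 5.08 ± 0.34 against eGFP (edgeR adjusted p = 0.00301). The GIRK1 libraries lay far above all controls. IRF9 rose by 3.16 (edgeR adjusted p = 0.00591) and STAT2 by 2.06 (edgeR adjusted p = 0.0123) on the log2 scale. The NF-kB subunits and feedback genes did not pass. The log2 fold changes of the subunits against eGFP were -0.56 for NFKB1, -0.75 for NFKB2, -0.37 for RELA, -0.61 for RELB and 0.43 for REL. Those of the feedback genes were -0.61 for NFKBIA and -1.32 for TNFAIP3. NFKBIZ, a further listed regulator, gave -0.75 and did not pass either.

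Markers of leukocytes, endothelium and fibroblasts had few or no reads, except CD14, CD68 and DCN. CD14 reached 21.65 RPM and CD68 23.8 RPM in eGFP replicate 1, and DCN reached 27.0 RPM in GIRK1 replicate 1. These levels were above the highest values of CCL5 and CXCL10. The 7 luminal epithelial markers summed to 389.9 to 492.8 RPM in the 5 compared libraries, most of it KRT18 (308.4 to 392.4 RPM), and none of the 4 tested passed. Of 10 leukocyte markers PTPRC, CD3E, MS4A1, FCGR3A and LYZ were at 0 reads in every library. The summed leukocyte list, made up by CD14, CD68 and scarce others, gave 22.3 RPM in WT replicate 2, 45.8 and 44.1 RPM in eGFP, and 35.2 and 31.0 RPM in GIRK1, and neither tested member passed. The 3 endothelial markers summed to at most 0.4 RPM. Of 4 fibroblast markers DCN, a matrix proteoglycan, rose from 0.78 and 3.71 RPM in eGFP to 27.0 and 25.2 RPM in GIRK1 (edgeR adjusted p = 0.0371), with 10.2 RPM in WT replicate 2, and did not pass against the 3 controls (edgeR adjusted p = 0.145). Against eGFP, DCN passed the filter on low counts only with its GIRK1 reads, so its direction was not independent of the filter. The part of DCN in the chemokine differences was not tested.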

How the data were processed

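RNA was sequenced on an Ion S5 XL as AmpliSeq transcriptome amplicons, 1 per gene. Per the methods, the authors mapped reads to the AmpliSeq transcript reference and counted them. Each deposited table gives counts of total reads and of forward and reverse covering reads, and RPM, which the authors scaled to the mapped reads of the library. 10 spike-in amplicons, all at 0 reads, were left out. The total counts (2506120 to 16040556 per library) were tested in edgeR 4.0.16 (R 4.3.3) by the quasi-likelihood test after filterByExpr and TMM, with Benjamini-Hochberg adjustment over all genes tested and a threshold of 0.05. 4 libraries entered the comparison with eGFP and 5 the comparison with eGFP and WT replicate 2. RPM values, means and SDs are descriptive. Genes were described in full if their mean over the 5 libraries was at least 10 reads. The members, gene lists and tests were chosen with earlier results of these data known. Intervals are exact binomial intervals at 95%. Alternatives were DESeq2 1.42.0 (its size factors or its test), scaling by total reads, other filters, covering reads, all 6 libraries, a replicate block, leaving out each library and a threshold of 0.1. The fits were tested on simulated data. Promoters came from RefSeq (GRCh38.p14) and gene positions from GENCODE v29 (GRCh38), matched by symbol for 40 of 41 members, IL8 as CXCL8. The amplicon tables name no genome build. Values of some listed genes are not reported here.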

Additional observations from a re-analysis of the deposited data

Results flagged for a closer look

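WT replicate 1 entered no comparison, and among the chemokines and their receptors 4 genes had more than 3 reads in it and a higher RPM than in each of the other 5 libraries. CXCL12 had 8.78 RPM there and 0 reads elsewhere. CXCR4, its receptor, had 20.7 RPM (exact binomial 95% interval 15.5 to 27.2), against at most 1.31 RPM elsewhere. CCRL1, an atypical receptor, had 2.39 RPM from 6 reads and 0 reads elsewhere. CCBP2, another atypical receptor, had 2.0 RPM from 5 reads (interval 0.648 to 4.66), against at most 1.26 RPM elsewhere, a difference within counting error.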

How the results depend on the processing

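With 2 libraries a group, the number of chemokines called moved with the processing, while no fold change of the 9 genes changed sign. Against eGFP (3 chemokines and 172 genes), the DESeq2 test called 5 and 694, no filter 7 and 881, at least 10 reads in every library 1 and 111 (CCL5, CXCL10 and CXCL11 were then not tested), and an edgeR fit with all 6 libraries 0 and 0 (1 chemokine at an unadjusted p below 0.05). Against the 3 controls (0 chemokines and 1.21% of genes), the DESeq2 test called 5 and 7.36%, no filter 5 and 2.46%, a threshold of 0.1 4 and 3.36%, and all 6 libraries in edgeR 0 and 0.0606% (2 at an unadjusted p below 0.05). A threshold of 0.1 against eGFP called 4 and 469. With no filter, the median log2 fold change of the chemokines turned positive in both comparisons, to 0.23 against eGFP and 0.32 against the 3 controls, because 11 genes of low counts joined the 9. The cause of the other changes was not tested. Leaving out 1 library gave 2 to 9 chemokines against eGFP (89 to 2933 genes) and 0 to 7 against the 3 controls (0.163% to 8.73% of genes). The highest counts against eGFP came without eGFP replicate 1 (5) and without eGFP replicate 2 (9); an arm left with 1 library is assumed to vary like the other. IL8 lost its call without GIRK1 replicate 2 and with all 6 libraries, CCL20 in 5 alternatives and CCL5 with all 6 libraries.

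The labels number the libraries 1 and 2 in each line, but nothing says that equal numbers share a culture or day. With a replicate block 6 chemokines (590 genes) were called against eGFP and 6 (4.90% of genes) against the 3 controls. Deviations of same-numbered libraries correlated at 0.193 between eGFP and GIRK1 over 9212 genes, at 0.130 between eGFP and WT and at 0.036 between GIRK1 and WT, and 2 pairs do not settle whether the numbers pair the samples.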
